A study of Mus musculus with 9 samples.

Results

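The genes described here are 10 genes of endoplasmic reticulum (ER) stress and ER protein folding, namely Ern1, Atf6, Xbp1, Herpud1, Dnajb9, Hspa5, Hsp90b1, Pdia4, Calr and Canx. They were taken by symbol from the 55414 genes listed for mouse round spermatids (RS), the haploid germ cells that follow meiosis. All 10 were among the 25128 genes whose counts summed to 10 or more over the libraries, and were tested with them. RS of wild-type label were cultured for 24 h in 3 groups, which received vehicle, oxamate at 24 mM, or both oxamate at 24 mM and octyl-L-2HG at 0.3 mM. Oxamate inhibits lactate dehydrogenase, and octyl-L-2HG is an ester of the metabolite L-2-hydroxyglutarate that enters cells. All 3 groups contained 0.15% DMSO and the same medium with lactate and pyruvate, and each had 3 libraries of poly(A)-selected RNA. No group received octyl-L-2HG without oxamate, so what the ester does alone was not measured. Per the study's methods, germ cells were sorted by FACS from prepubertal and adult Stra8-iCre mice carrying a tdTomato reporter, in which the Stra8 promoter drives Cre in early germ cells. Which of these ages gave the RS libraries is not given in the sources used here. The study lowered L-2HG with oxamate and added it back, and the comparisons below ask how the RNA of these genes stood in each condition.

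Proteins that are secreted, membrane-bound or stored in vesicles fold in the ER, and in RS this route also supplies the acrosome, the secretory vesicle that covers the sperm head. When unfolded proteins accumulate, the sensors encoded by Ern1 (IRE1 alpha), Atf6 and Eif2ak3 (PERK) are activated. IRE1 splices the Xbp1 mRNA, ATF6 is cut in the Golgi to release a transcription factor, and both routes raise the transcription of chaperone and degradation genes such as Hspa5 (BiP), Hsp90b1 (GRP94), Pdia4, Calr (calreticulin), Dnajb9 and Herpud1. Gene-level counts do not separate spliced from unspliced Xbp1 and say nothing of protein.

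The promoters of several of these genes contain the ER stress response element, CCAAT followed by 9 bases of any kind and CCACG, to which ATF6 and the spliced XBP1 protein are known to bind. The promoter sequences are shown because they separate the genes by a feature that the measurements did not use. RefSeq promoters (build GRCm38.p6, 250 bases before to 50 after each start site) were at hand for 9 of the 10 genes, Atf6 having no entry. The element was searched on both strands and was found exactly in 4 of these 9 genes. Over all 27025 genes with a promoter sequence it was found in 37 (0.137%), and over all 32851 promoters in 39 (0.119%). The 10 genes were chosen as genes of ER stress and folding, where this element is known. The contrast with all genes is therefore a description and not a test. Each match is shown with 20 bases on either side, along the gene's own strand, with the element's fixed letters in capitals. A match on the other strand reads CGTGG, 9 bases, ATTGG.
Hspa5, chr2:34772005-34772063, plus strand: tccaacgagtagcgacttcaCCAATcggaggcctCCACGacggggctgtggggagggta
Hsp90b1, chr10:86705618-86705676, minus strand: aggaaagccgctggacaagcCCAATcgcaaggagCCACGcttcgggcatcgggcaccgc
Hsp90b1, chr10:86705513-86705571, minus strand: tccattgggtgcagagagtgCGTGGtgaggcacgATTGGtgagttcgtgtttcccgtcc
Calr, chr8:84847055-84847113, minus strand: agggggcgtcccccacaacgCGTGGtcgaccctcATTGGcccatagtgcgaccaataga
Canx, chr11:50325780-50325838, minus strand: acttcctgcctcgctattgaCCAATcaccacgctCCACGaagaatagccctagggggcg

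In Hspa5 the element lay 65 to 47 bases before the start site. In Calr it lay at 162 to 144 bases, in Canx at 145 to 127 bases, and in Hsp90b1 at 212 to 194 and again at 107 to 89 bases. A second form of the element, ATTGG, 1 base and CCACG, was found in Herpud1 alone among the 9 genes. Over all 27025 genes it was found in 12 (0.0444%). It lay 52 to 42 bases before the start.
Herpud1, chr8:94386357-94386407, plus strand: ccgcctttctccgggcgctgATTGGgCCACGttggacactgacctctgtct

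Pdia4, Ern1, Xbp1 and Dnajb9 held no exact match to either form. The unfolded protein response element TGACGTGG was found in none of the 9 genes and in 193 of all 27025 genes (0.714%). The 100 bases before the start sites of Pdia4 and Ern1 are printed in lower case because these are the genes that rose with oxamate below. The absence of a match says only that these letters are not in the window.
Pdia4, chr6:47813513-47813612, minus strand: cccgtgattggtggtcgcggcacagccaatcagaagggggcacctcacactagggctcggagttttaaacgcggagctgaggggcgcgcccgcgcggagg
Ern1, chr11:106487797-106487896, minus strand: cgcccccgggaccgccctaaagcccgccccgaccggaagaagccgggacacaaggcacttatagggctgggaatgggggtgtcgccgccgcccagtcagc

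**Figure D1:**
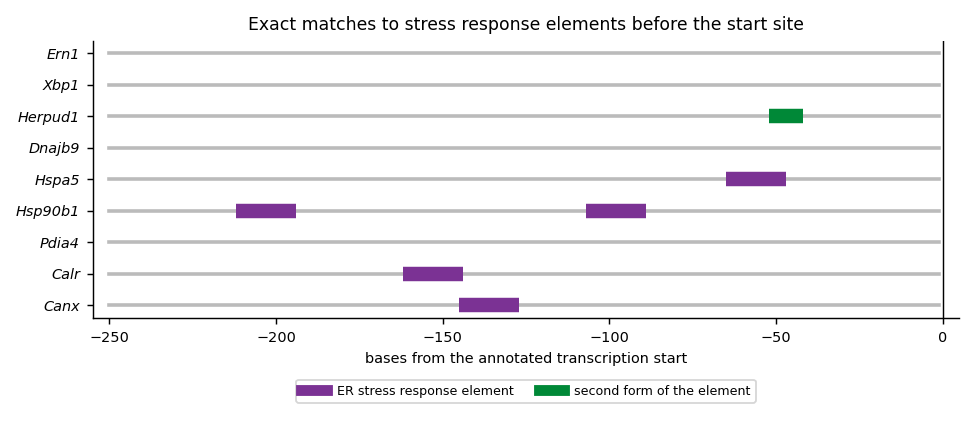
Positions of exact element matches in the 250 bases before the annotated start site (x axis, bases from the start) of the 9 genes with a promoter sequence, 1 line per gene. Hspa5, Calr and Canx hold 1 match to the ER stress response element, Hsp90b1 holds 2 and Herpud1 holds the second form.

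The libraries held between 32339533 and 39888396 counted reads, and the groups overlapped in depth. Oxamate library 4 stood apart: its counts differed from those of the other oxamate libraries by a chi-square of 18.7 and 23.3 per degree of freedom, where those libraries gave 2.098 between themselves. Vehicle library 1 differed from the other vehicle libraries by 11.9 and 11.3, which gave 6.48 between themselves, and the libraries with both compounds differed by 2.43 to 7.10. The RS label was checked on marker genes. The summed level of 8 round spermatid markers was 2173 to 2221 CPM (counts scaled to the library total) in all libraries, and those of the Sertoli and Leydig cell markers were at most 1.44 and 1.09. Macrophage markers summed to 2.54 to 3.47 CPM, with the macrophage marker Lyz2 at 0 in every library. Of the 8 round spermatid markers, 2 were called higher and 2 lower with both compounds against vehicle, and 1 was lower with both against oxamate alone. The summed level of 5 late spermatid markers (Prm1, Prm2, Tnp1, Tnp2 and Odf1) was 1224 to 1309 with vehicle, 1085 to 1120 with oxamate and 860.7 to 888.0 with both compounds. Of these 5, 4 were lower with oxamate and all 5 were lower with both compounds, against either other group. The summed level of 5 myoid cell markers, far lower, was 3.51 to 4.11 with vehicle, 3.36 to 3.67 with oxamate and 2.60 to 2.83 with both compounds, and 1 of the 5 was called lower than with vehicle in each treated group. The 6 spermatocyte markers summed to 160.3 to 193.0 with vehicle, 151.3 to 169.4 with oxamate and 151.3 to 158.0 with both. The 6 spermatogonium markers summed to 5.51 to 6.14, 6.70 to 6.97 and 5.96 to 6.43 in that order, so that oxamate was highest, and 1 of them was called lower with both than with vehicle. Among these sums, only those of the late spermatid markers were apart in all 3 groups. The myoid sums with both compounds lay below those of the other groups, and the spermatogonium sums with oxamate lay above them. The spermatocyte sums with both compounds lay below those with vehicle, but none of the 6 spermatocyte markers was called in any comparison. The other pairs of groups overlapped in these sums. The part of these shifts in the results on the ER genes was not tested. In RNA of whole cell populations, fewer cells of a kind and less RNA per cell cannot be told apart.

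Per length of transcript, the ER genes spanned a wide range in vehicle-treated RS. Calr, a calcium-binding lectin chaperone, was the highest with 5440 ± 244 normalized counts per kilobase of exon (mean ± SD, n = 3, here and below). Hspa5, the HSP70 of the ER, had 3300 ± 55.1 and Hsp90b1, the HSP90 of the ER, had 2958 ± 168. Calr stood at the percentile 98.3 of all tested genes with a known length, Hspa5 at 96.9 and Hsp90b1 at 96.4.
Dnajb9, a co-chaperone of BiP, and Canx, the membrane-bound lectin chaperone calnexin, followed with 1806 ± 92.4 and 751.8 ± 29.0. Herpud1, a membrane protein of ER-associated degradation, and Pdia4, a protein disulfide isomerase, had 244.7 ± 24.2 and 229.1 ± 21.3, and their libraries overlapped. The sensor and transcription factor genes were the lowest, with 40.0 ± 1.80 for Atf6, 24.1 ± 1.62 for Xbp1 and 14.3 ± 3.14 for Ern1. Ern1 stood at the percentile 44.8. All other neighbours in this order were separated in every vehicle library.

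The order differed in the treated groups. With oxamate, Pdia4 (384.8 ± 32.1) stood above Herpud1 (247.9 ± 31.6), and Ern1 (28.1 ± 1.87) above Xbp1 (26.2 ± 2.35), though the libraries of the latter pair overlapped, as did those of Hspa5 and Hsp90b1. With both compounds, Hsp90b1 (3733 ± 77.8) stood above Hspa5 (3093 ± 63.6) in every library, and Pdia4 (281.3 ± 4.12) again above Herpud1 (210.2 ± 10.2).

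**Figure D2:**
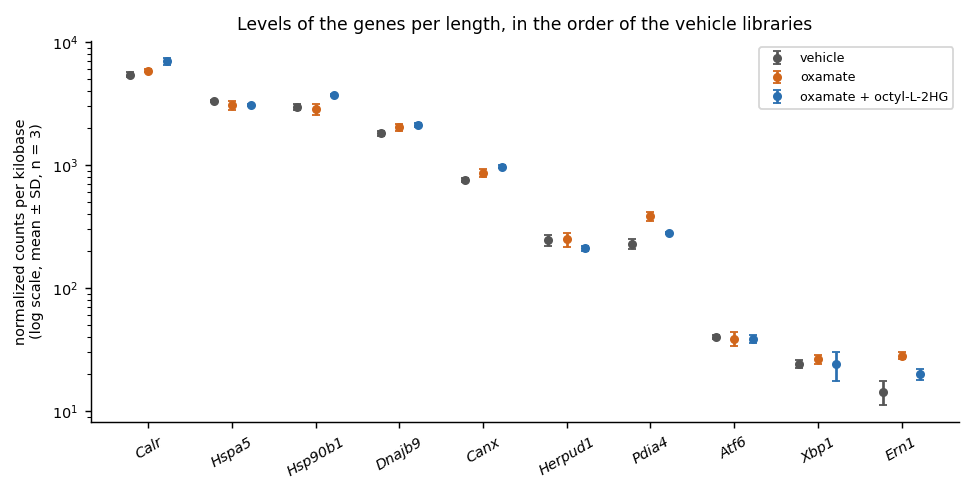
Normalized counts per kilobase of exon (y axis, log scale) of the 10 genes, ordered by their level with vehicle, as mean ± SD of 3 libraries for each group. Calr is the highest gene in every group, from 5440 to 6994, and Ern1, Xbp1 and Atf6 lie under 50.

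Oxamate against vehicle asks how RNA levels differed in cells cultured with oxamate. The activity of lactate dehydrogenase was not measured in these data, and the part of its inhibition in the differences was not tested. Of the 10 genes, 2 rose, Ern1 and Pdia4, and none fell. Among all tested genes 3.97% were called higher and 1.22% lower in this comparison, at an adjusted p under 0.05 by edgeR's quasi-likelihood test. All of the 10 genes but Xbp1 averaged 100 or more normalized counts, and of the 10715 tested genes at that level 8.08% were called higher and 1.59% lower. The count of 0 lower genes was also 0 at an unadjusted p under 0.05 and by DESeq2. The unadjusted count of higher genes was 4. The median log2 fold change of the 10 genes was 0.12, beside -0.01 for all genes tested. Without oxamate library 4, Canx and Dnajb9 were called higher too, which made 4 genes.

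Ern1 encodes the sensor IRE1 alpha, a kinase and endoribonuclease of the ER membrane. Its normalized counts were 125.3, 88.1 and 137.4 with vehicle, 215.3, 227.1 and 245.6 with oxamate, and 147.1, 181.0 and 161.9 with both compounds. The 3 groups did not overlap, with oxamate highest and both compounds between. Oxamate raised Ern1 1.96-fold against vehicle (log2 fold change 0.97 ± 0.13 SE, edgeR adjusted p = 0.000113).

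Pdia4, which forms and rearranges disulfide bonds in ER proteins, had normalized counts of 538.4, 505.1 and 605.3 with vehicle and 835.5, 953.8 and 980.0 with oxamate. With both compounds it had 667.1, 685.9 and 671.2. These groups did not overlap either, and their order was that of Ern1. The rise with oxamate was 1.68-fold (0.75 ± 0.08, edgeR adjusted p = 1.08e-05). Both rises were called in all 17 alternative settings run.

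Hspa5 is the gene most often read as a sign of ER stress. Its normalized counts were 13860, 13780 and 14220 with vehicle, 11810, 13490 and 13700 with oxamate, and 13390, 12880 and 12980 with both compounds. Every library with oxamate lay below every vehicle library, but by little, since the nearest were 13700 and 13780. The log2 fold change of -0.10 ± 0.06 did not pass the test (edgeR adjusted p = 0.467), nor did that of -0.11 ± 0.06 between both compounds and vehicle (edgeR adjusted p = 0.240). Without oxamate library 4, the lowest of the 9, the former was -0.04.

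Xbp1 and Atf6, the transcription factor genes of the response, overlapped between all groups. Xbp1 had 80.0, 82.5 and 72.3 normalized counts with vehicle, 86.7, 77.0 and 92.1 with oxamate and 53.9, 88.8 and 90.8 with both compounds, where library 7 was the lowest of all. Atf6 lay between 317.2 and 407.1 over the 9 libraries, and both of these limits were oxamate libraries. The edgeR adjusted p of Xbp1 and Atf6 was 0.685 or more in each comparison.

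The libraries with both compounds were then compared with oxamate alone, which asks what adding octyl-L-2HG changed. Pdia4 and Ern1 fell, and Hsp90b1 and Calr rose. Beside these counts of 2 lower and 2 higher genes, 8.06% of all tested genes were called lower and 3.18% higher, or 12.7% and 7.06% of those averaging 100 or more normalized counts. The median log2 fold change of the 10 genes was -0.02 and that of all genes -0.04.

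Pdia4 was 0.72 times its oxamate level (-0.48 ± 0.08, edgeR adjusted p = 0.000722) and Ern1 0.70 times (-0.51 ± 0.13, edgeR adjusted p = 0.0121). The call of Ern1 was lost when library 7 or library 9 of this group was left out, and at a threshold of 0.01. Both genes stayed above vehicle, Pdia4 1.21-fold (0.27 ± 0.09, edgeR adjusted p = 0.0278) and Ern1 1.37-fold (0.46 ± 0.14, edgeR adjusted p = 0.0242). The oxamate libraries enter both the rise against vehicle and the fall with octyl-L-2HG, so these 2 differences are not independent.

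Hsp90b1 folds a narrow set of client proteins, integrins and Toll-like receptors among them. Its normalized counts were 11240, 11950 and 12590 with vehicle, 10120, 11830 and 12460 with oxamate and 15340, 15100 and 14710 with both compounds. The libraries with both compounds lay above all others, while vehicle and oxamate overlapped. Hsp90b1 was 1.29-fold higher with both compounds than with oxamate (0.37 ± 0.07, edgeR adjusted p = 0.00169), and was called in all 17 alternative settings. Its exons share 15.7% of their length with 3 other annotated genes, 1 of them on the opposite strand, and the strand setting of the counting is not given in the sources used here.

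Calr had 16070, 14860 and 16080 normalized counts with vehicle, 17190, 16390 and 16940 with oxamate and 21440, 19960 and 19030 with both compounds. The groups did not overlap and lay in that order, from low to high. The step from oxamate to both compounds was 1.17-fold (0.23 ± 0.06, edgeR adjusted p = 0.0183) and was not called without library 5, 7 or 8 or at a threshold of 0.01. The step from vehicle to oxamate (0.11 ± 0.06) did not pass the test (edgeR adjusted p = 0.395).

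**Figure D3:**
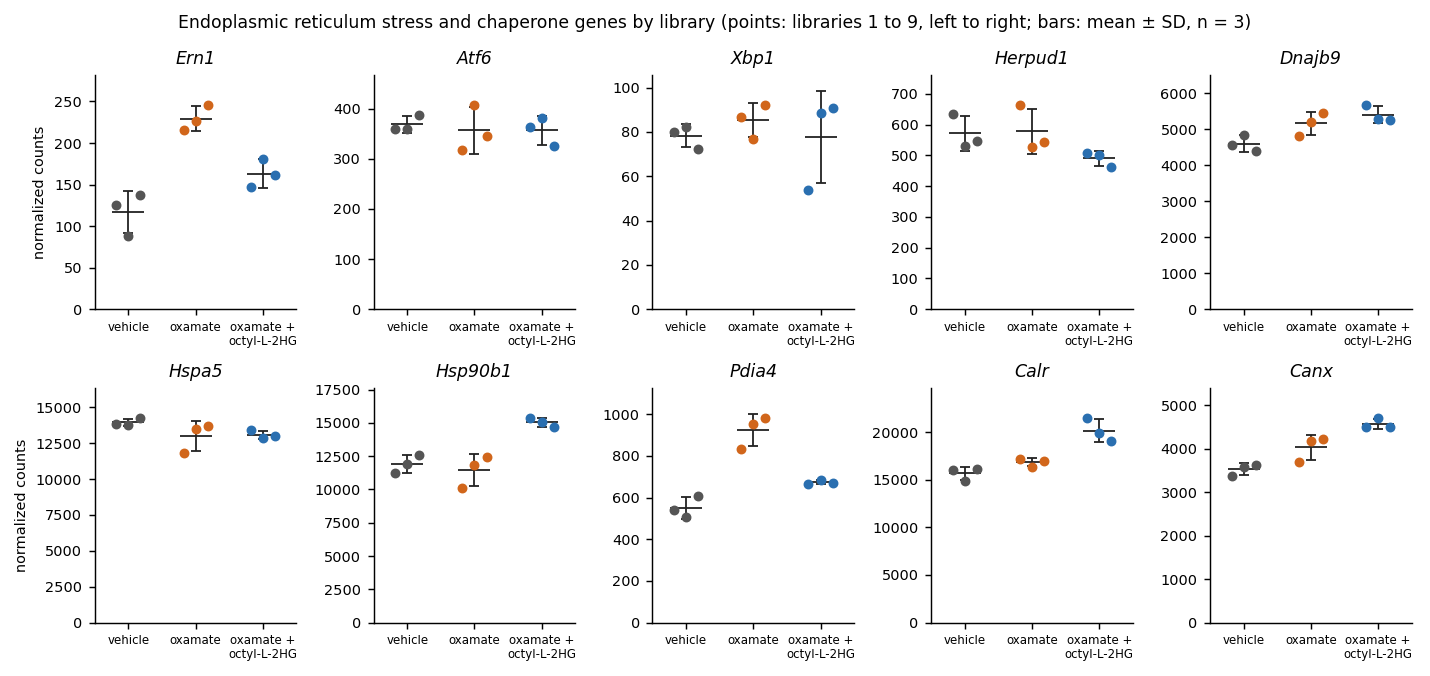
Normalized counts (y axes, each from 0) of the 10 genes in the 9 libraries, with points in library order 1 to 9 from left to right and bars for the mean ± SD of 3 libraries. Ern1 and Pdia4 are highest with oxamate, Hsp90b1, Calr and Canx are highest with both compounds, and for Atf6 and Xbp1 the 3 groups overlap.

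Against vehicle, both compounds together raised 6 of the 10 genes and lowered none. The higher genes were Hsp90b1, Calr, Canx, Dnajb9, Pdia4 and Ern1. Among all tested genes 7.48% were called higher and 10.6% lower in this comparison, and among those averaging 100 or more normalized counts 16% were higher and 13.6% lower. The count of 0 lower genes was 1 at an unadjusted p under 0.05, which was Herpud1, and 0 by DESeq2. With total counts as the scaling in place of edgeR's TMM method, 3 genes were higher and 1 lower, and without vehicle 1, vehicle 2 or library 7, 8 or 9 with both compounds 3 or 4 were higher. The summed late spermatid markers given above moved in the same libraries.

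Canx retains glycoproteins in the ER until they are folded. Its normalized counts were 3375, 3577 and 3633 with vehicle, 3695, 4167 and 4232 with oxamate and 4498, 4696 and 4493 with both compounds. The groups did not overlap, as for Calr. Both compounds gave 1.27-fold the vehicle level of Canx (0.35 ± 0.07, edgeR adjusted p = 0.000748) and 1.27-fold that of Calr (0.34 ± 0.06, edgeR adjusted p = 0.000477).

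Hsp90b1 was 1.24-fold higher than with vehicle (0.31 ± 0.07, edgeR adjusted p = 0.00300). Hsp90b1, Calr and Canx remained called against vehicle in all 17 alternative settings. Dnajb9, known also as ERdj4, had normalized counts of 4571, 4854 and 4387 with vehicle, then 4827, 5217 and 5454 with oxamate and 5676, 5286 and 5267 with both compounds. The last group lay above vehicle and overlapped oxamate.

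Dnajb9 was 1.16-fold higher with both compounds than with vehicle (0.21 ± 0.07, edgeR adjusted p = 0.0333). This call and those of Pdia4 and Ern1 in the same comparison were lost with total counts as the scaling and at a threshold of 0.01, and that of Ern1 also when the transcript length trend was removed. Leaving out library 8 or 9 ended all 3 calls, as did vehicle library 1 or library 7 for Dnajb9 and Pdia4, vehicle library 2 for Pdia4 and Ern1, and vehicle library 3 for Dnajb9.

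Herpud1 had 635.3, 529.8 and 547.7 normalized counts with vehicle, 663.0, 528.4 and 543.7 with oxamate and 507.6, 500.3 and 463.4 with both compounds. The last group was the lowest without overlap. Neither its difference from vehicle (-0.24 ± 0.10, edgeR adjusted p = 0.0950) nor that from oxamate (-0.27 ± 0.10, edgeR adjusted p = 0.0877) passed the test. Library 4 was the highest oxamate library here, and without it the difference from vehicle was called, as it was with total counts as the scaling and with only the 2 groups fitted. The difference from oxamate was called with total counts.

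In the test of any difference among the 3 groups, 5 of the 10 genes were called, beside 19.8% of all genes tested. These were Pdia4 (edgeR adjusted p = 5.58e-06), Ern1 (6.77e-05), Hsp90b1 (0.00102), Calr (0.00116) and Canx (0.00232). Of the 4 genes with the ER stress response element before their start site, Hsp90b1, Calr and Canx were called and Hspa5 was not. Herpud1, with the second form, was not called, while Pdia4 and Ern1, without an exact match, were. The genes were sorted with the calls known, and a part of the element in these differences was not tested.

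**Figure D4:**
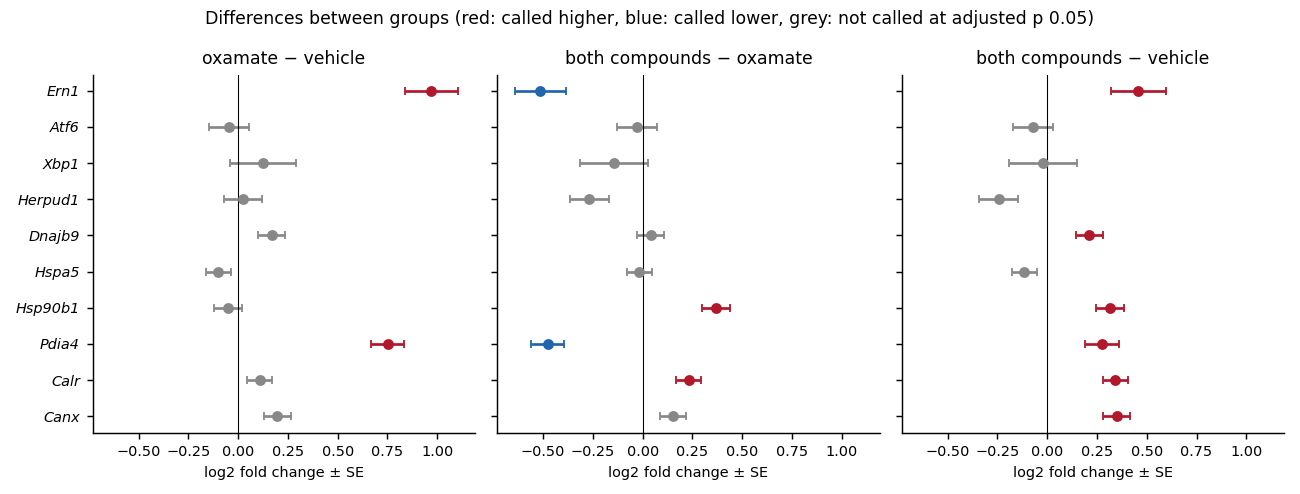
Log2 fold changes ± SE (x axes) of the 10 genes in the 3 comparisons from the edgeR fit, in red or blue where called higher or lower at an adjusted p under 0.05 and in grey otherwise. Ern1 and Pdia4 are red against vehicle with oxamate and blue when both compounds are set against oxamate, while 6 genes are red in the last panel.

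The gene with the least distance to Hspa5 over the 9 libraries, in log2 normalized counts centred per gene, was Ctnna3 (distance 0.09), followed by Ccdc169 and Uck2 (0.10 each). The median distance over the 10715 genes averaging 100 or more normalized counts was 0.49. Among the other ER genes above that level, Atf6 was nearest (0.27, rank 641), and Dnajb9 (0.45) was also within the median. Herpud1 (0.56), Canx (0.59), Hsp90b1 (0.59), Calr (0.61), Pdia4 (1.06) and Ern1 (1.44) lay beyond it. These distances are small for any gene with little spread between libraries.

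The 10 genes were set beside the rest of the ER folding and stress genes in 7 lists, of which 113 of 115 genes were tested, 103 of them outside the 10. With oxamate, 13 of the 103 rose and none fell, beside 3.97% higher and 1.22% lower over all genes tested, or 8.08% and 1.59% over genes averaging 100 or more normalized counts. At an unadjusted p under 0.05, 29 were higher and 5 lower, and DESeq2 called 14 higher and none lower. With both compounds against oxamate 13 rose and 7 fell, beside 3.18% higher and 8.06% lower over all genes (7.06% and 12.7% at the higher level). Against vehicle 28 rose and 11 fell, beside 7.48% and 10.6% (16% and 13.6%). The counts of each list below are to be read against the same shares. Their median log2 fold change was 0.07, 0.03 and 0.13 in these comparisons, beside -0.01, -0.04 and -0.05 for all genes. Over all 113 genes, 15 were higher and none lower with oxamate, and without oxamate library 4 these counts were 22 and 2. With both compounds against oxamate 15 were higher, which fell to 4 without oxamate library 5, 8 without library 6, 5 without library 7 or 8 and 7 without library 9, and to 8 with total counts as the scaling. The 9 lower genes became 15 without library 4, 14 with total counts and 5 without library 7 or 9. Against vehicle the 34 higher genes became 21 without library 7, 20 without library 8 and 21 with total counts, and the 11 lower became 7 without library 7.

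Of 14 genes for stress sensors and their transcription factors, Ern1 and Mbtps1 rose with oxamate, and the median log2 fold change of the list was 0.12 there, -0.14 for both compounds against oxamate and 0.02 against vehicle. Mbtps1, the protease that makes the first cut in ATF6, went from 294.5 normalized counts with vehicle to 449.6 with oxamate (0.62 ± 0.09, edgeR adjusted p = 0.000226) and 415.8 with both compounds. Mbtps1 was also called higher than vehicle with both compounds (0.47 ± 0.09). Eif2ak3, the third sensor, was chosen for mention after its values were seen, and its mean of 2.40 normalized counts was too low for a comparison.

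Of 9 tested stress-induced effector genes, Chac1 and Sesn2 rose with oxamate, and the medians of the list in the 3 comparisons were 0.10, -0.04 and 0.02. Chac1, a glutathione-degrading enzyme induced by ATF4, rose from 68.0 to 153.6 normalized counts (1.18 ± 0.13, edgeR adjusted p = 1.08e-05) and had 118.8 with both compounds (-0.40 ± 0.12 against oxamate, edgeR adjusted p = 0.0378). This last call was made in 6 of 17 alternative settings, and was lost with DESeq2 and without library 3, 5, 6, 7 or 9. Sesn2, a stress-induced regulator of nutrient signalling, had 179.6, 239.4 and 269.8 with vehicle, oxamate and both, and its rise with oxamate (0.42 ± 0.12, edgeR adjusted p = 0.0437) was called in 5 of 17 alternative settings and in 1 of the 9 that leave out a library. Asns, asparagine synthetase and also a target of ATF4, had 2335, 2197 and 1604, and was not called with oxamate against vehicle (-0.08 ± 0.07, edgeR adjusted p = 0.592). Asns fell with both compounds against oxamate (-0.48 ± 0.07, edgeR adjusted p = 9.88e-05) and against vehicle (-0.56 ± 0.07, edgeR adjusted p = 5.88e-06). Ddit3, which encodes CHOP and was likewise chosen after its values were seen, had 1094, 1041 and 1124 and was called in no comparison.

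The HSP70 and HSP90 list of 17 genes had 3 higher with oxamate and 7 higher with both compounds against vehicle, with none lower in any comparison. The unadjusted counts of lower genes were 0, 1 and 0 in the 3 comparisons, and DESeq2 called none lower. The medians of the list were 0.09, 0.03 and 0.21. Hyou1, a large HSP70-like exchange factor of BiP, had means of 821.9, 1072 and 1016 normalized counts with vehicle, oxamate and both. It was higher with oxamate (0.39 ± 0.08, edgeR adjusted p = 0.00413). Cnpy3, a co-chaperone of GRP94, had 124.1, 173.6 and 207.7 in that order and was higher with both compounds than with vehicle (0.71 ± 0.12). Dnajc10, a disulfide reductase bound to BiP, rose from 3460 with vehicle to 4948 with both (0.50 ± 0.07). Sec63, which recruits BiP to the translocon, rose from 2112 with oxamate to 2684 with both (0.32 ± 0.08), a call lost without library 7.

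Of 18 tested disulfide isomerase and oxidation genes, 3 rose with oxamate, and against vehicle both compounds raised 6 and lowered 3. The medians of the list were 0.09, 0.07 and 0.18. P4hb, the archetypal protein disulfide isomerase, averaged 273.3 normalized counts under vehicle, 392.6 under oxamate and 424.5 under both. Unlike Pdia4, P4hb was not called between oxamate and both compounds (0.08, edgeR adjusted p = 0.672). The sulfhydryl oxidase gene Qsox1 likewise went from 2173 to 2988 and 3233.
The lower genes with both compounds against vehicle included Ero1a, an oxidase that recharges disulfide isomerases, (-0.61 ± 0.14) and Prdx4, an ER peroxiredoxin, (-0.32 ± 0.07). The third was Tmx2, a membrane-bound thioredoxin-like protein, which had 1297 normalized counts with vehicle and 1098 with both (-0.26 ± 0.07). Tmx2 was also lower with both than with oxamate (-0.38 ± 0.07). Ero1b, the homologue of Ero1a, and Erp44, which retains the ERO1 proteins in the ER, rose with both compounds against oxamate (0.19 ± 0.06 and 0.23 ± 0.07), and both of these calls were lost when any 1 of libraries 5 to 9 was left out.

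Of 13 lectin chaperone and glycan trimming genes, 1 rose with oxamate and 6 rose and 1 fell with both compounds against vehicle. The medians of the list were 0.17, 0.08 and 0.20. The gene that rose with oxamate was Edem3, which trims mannose from misfolded glycoproteins. It averaged 398.4 normalized counts under vehicle, 598.4 under oxamate and 418.5 under both, and the rise (0.59 ± 0.12, edgeR adjusted p = 0.00541) and the fall (-0.54 ± 0.12, edgeR adjusted p = 0.00697) were both called, the fall not without library 9. Man1b1, another mannosidase, had 1008, 1219 and 1542 and was higher with both than with vehicle (0.59 ± 0.09). Uggt1, the folding sensor that adds glucose back to glycoproteins, went from 119.0 with oxamate to 87.4 with both (-0.47 ± 0.13). This call was made in 8 of 17 alternative settings, and was lost with DESeq2 and when any 1 of libraries 5 to 9 was left out.

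Of 25 genes of ER-associated degradation, 4 rose with oxamate, and both compounds raised 8 and lowered 3 against vehicle. The medians of the list were 0.02, 0.035 and 0.05. Sel1l, the scaffold of the HRD1 ubiquitin ligase, had 423.1, 662.2 and 736.8 normalized counts with vehicle, oxamate and both (0.65 ± 0.09 for oxamate, edgeR adjusted p = 0.000127). Nploc4, a cofactor of the segregase VCP, had 3407, 5047 and 6625, and was 0.94 ± 0.10 higher with both compounds than with vehicle (edgeR adjusted p = 6.95e-07). The ubiquitination genes Rnf5 and Ube2g2 fell in that comparison (-0.56 ± 0.14 and -0.41 ± 0.09), Rnf5 not without vehicle library 1. The lectin gene Erlec1 rose with both compounds against oxamate (0.29 ± 0.07).

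Of 21 genes for translocation and N-glycan transfer, none was called with oxamate by edgeR or DESeq2, and at an unadjusted p under 0.05 there were 3 higher and 1 lower. With both compounds against vehicle 3 rose and 3 fell. The medians of the list were 0.0019, 0.03 and 0.10. Rpn2, a subunit of oligosaccharyltransferase, had 13130, 13730 and 16440 normalized counts and rose (0.30 ± 0.07), as did the translocon gene Ssr1 (0.23 ± 0.07), the latter not without library 1, 2, 7 or 8. The signal peptidase gene Sec11c fell (-0.42 ± 0.11), but not without library 7 or 8. Dad1, also of oligosaccharyltransferase, was lower (-0.22 ± 0.08, edgeR adjusted p = 0.0482), was not called by DESeq2 and was called in 2 of the 9 settings that leave out a library.

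**Figure D5:**
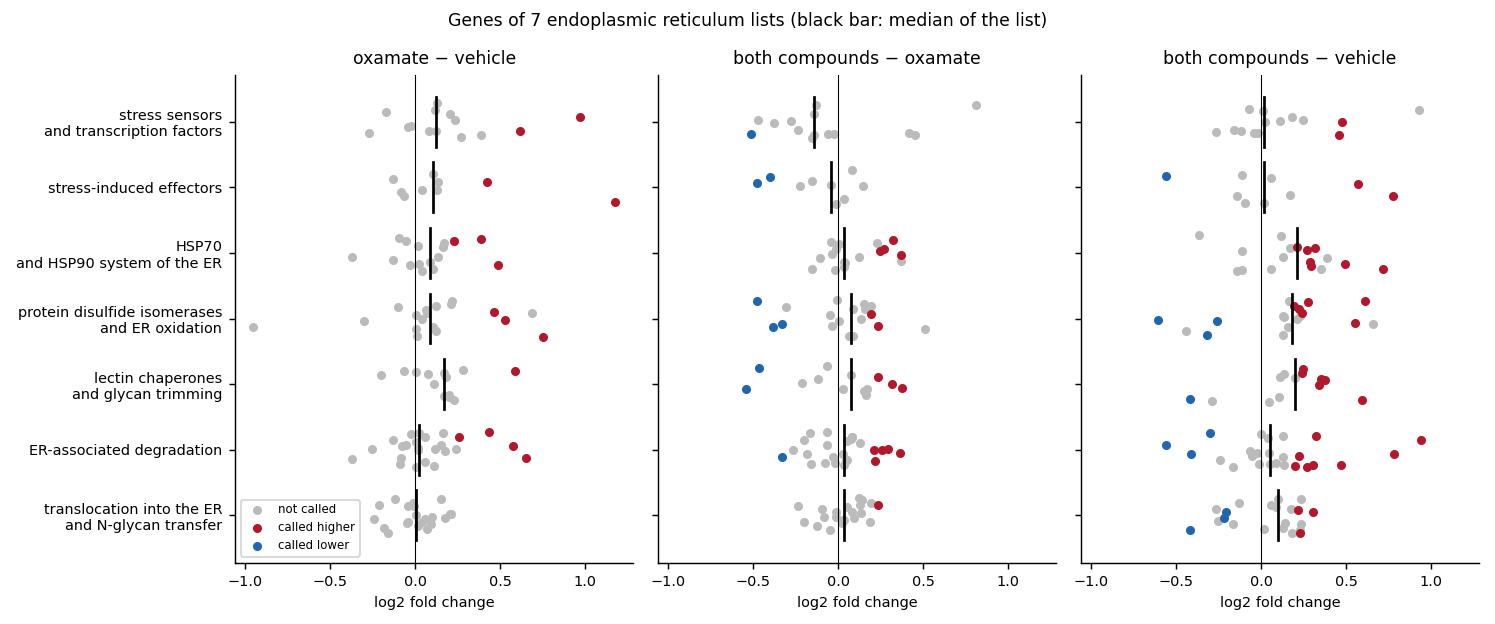
Log2 fold changes (x axes) of each tested gene of the 7 ER lists in the 3 comparisons, in red or blue where called higher or lower and grey otherwise, with a black bar for the median of the list. In the first panel the called genes are all higher (15 genes), and in the last 34 are higher and 11 lower.

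RS also make germ cell forms of some of these chaperones. Clgn, the testis form of calnexin required for sperm fertility, had 8521 normalized counts per kilobase with vehicle, 11.3 ± 0.38 times the level of Canx. Its normalized counts were 31880, 34380 and 36630 with vehicle, 30750, 35220 and 36950 with oxamate and 47690, 44860 and 43070 with both compounds. The first 2 groups overlapped and the third lay above them (0.37 ± 0.07 against oxamate, edgeR adjusted p = 0.00139).

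Clgn and Canx both rose with both compounds against vehicle (0.38 and 0.35), and the ratio of their levels per length was then 11.6 ± 0.70. With oxamate alone it was 9.91 ± 0.25.

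Calr3, the testis form of calreticulin, had 1714, 1766 and 1912 normalized counts with vehicle, 1430, 1568 and 1676 with oxamate and 1412, 1335 and 1348 with both compounds. It was called lower with both than with vehicle (-0.42 ± 0.07, edgeR adjusted p = 0.000321), where Calr was called higher. The ratio of Calr3 to Calr per length was 0.168 ± 0.010 with vehicle, 0.136 ± 0.012 with oxamate and 0.0996 ± 0.0039 with both, without overlap.

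Pdilt, a testis disulfide isomerase-like chaperone, was called in no comparison, with means of 10540, 11440 and 11700 normalized counts. Its level per length was 20.2 ± 0.90 times that of Pdia4 with vehicle, 13.0 ± 0.30 times with oxamate and 18.2 ± 0.75 times with both compounds. These ratios are given as a description.

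Of the pathway genes outside the 10, 6 of 84 with a promoter sequence held the ER stress response element, namely Creld2, Derl3, Dnajc3, Ero1b, Pdia6 and Syvn1. Syvn1, which encodes the ligase HRD1, was called higher with oxamate (0.43, edgeR adjusted p = 0.0341), and the other 5 were not called. With both compounds against vehicle Syvn1 (0.47), Ero1b (0.19) and Pdia6 (0.22) were called higher, and Creld2, Derl3 and Dnajc3 were not called (0.17, 0.13 and 0.06). These genes are named for the match and not for their values.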

How the data were processed

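Each of the 3 groups of cultured RS gave 3 RNA-seq libraries, 9 in all. The authors trimmed reads with cutadapt 2.10, aligned them with TopHat2 2.1.1 to the mouse genome (GRCm39, with Ensembl annotation) and deposited the raw count of reads per gene from HTSeq 2.01. They also deposited a normalized signal, the count divided by the library's DESeq2 1.36.0 size factor. Normalized counts in the text are this signal. The submitters' processing notes also list a worm build, and labels and methods name different sequencers. Of 55414 genes, 6250 had no counts deposited. No column of values went unused.

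Groups came from the sample labels. Genes with at least 10 counts in sum were tested on raw counts with edgeR 4.0.16 (R 4.3.3), with TMM normalization. The test used 1 robust quasi-likelihood fit of all 9 libraries with group as the only term, and Benjamini-Hochberg adjustment over 25128 genes (threshold 0.05). Each SE was derived from this test, as the absolute log2 fold change divided by the square root of its F statistic. The study describes triplicate incubations, but nothing in the sources used here says that they came from separate animals, so p-values measure the spread between these libraries, which may be technical. Levels per kilobase used the union of exons in GENCODE M21 (GRCm38), matched by identifier for 99.6% of tested genes, with no coordinates taken from it.

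The 10 genes, the other lists and the markers were chosen with earlier results of these data known. Named genes are the 10, the testis forms Calr3, Clgn and Pdilt, and for each list and comparison up to 2 called genes per direction with the largest change among those averaging 100 or more normalized counts, and the 3 genes nearest to Hspa5. Genes named for a promoter match, and Eif2ak3 and Ddit3, fall outside that rule. The result of 1 gene under the rule is not reported here. Alternatives were DESeq2 1.42.0, 2 other scalings, 2 other filters, a threshold of 0.01, fits of only 2 groups, removal of a transcript length trend, and each library left out. A planned reading of protein ends for retention signals was not run.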

Additional observations from a re-analysis of the deposited data

How the results depend on the processing

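Leaving out 1 library gave 2 to 4 of the 10 genes higher with oxamate, 1 to 2 higher and 1 to 2 lower with both compounds against oxamate, and 3 to 6 higher and 0 to 1 lower against vehicle. For the 113 pathway genes tested it gave 0 to 2 lower with oxamate (22 higher without oxamate library 4, 15 with all libraries), 4 to 19 higher and 5 to 15 lower with both against oxamate, and 20 to 42 higher and 7 to 14 lower with both against vehicle. All genes called numbered 659 to 2288, 1396 to 4415 and 2970 to 6194 in the 3 comparisons, beside 1303, 2823 and 4534. With total counts as the scaling, both compounds gave 3 of the 10 genes higher and 1 lower against vehicle, 21 pathway genes higher against vehicle, and 8 higher and 14 lower against oxamate. At an adjusted p under 0.01 the 10 genes had 1 higher and 1 lower against oxamate and 3 higher against vehicle, the pathway genes 4 higher and 5 lower against oxamate and 20 higher against vehicle, and all genes 602, 1261 and 2607. With only the 2 groups fitted, 1 of the 10 genes was lower with both against vehicle, and 745 genes differed with oxamate.

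Of 510 values of the 10 genes under an alternative, 454 kept direction and side of the threshold, 27 lost a call, 6 gained one and 23 changed sign, all of the last for differences that were not called. Of 901 values of the other named genes 98 lost a call, 3 gained one and 9 changed sign. For oxamate against vehicle, leave-one-out log2 values ran from -0.111 to 0.0252 for Hsp90b1, -0.152 to 0.031 for Atf6, -0.0928 to 0.109 for Herpud1 and -0.047 to 0.0728 for Clgn. Clgn was -0.0133 with total counts, -0.0012 with filterByExpr and -0.0324 without the length trend. For both against oxamate they ran from -0.076 to 0.0181 for Hspa5, -0.288 to 0.0566 for Xbp1, -0.104 to 0.0808 for Atf6, -0.0006 to 0.0765 for Dnajb9 and -0.0711 to 0.0637 for Pdilt. Hspa5 was 0.0092 with DESeq2, 0.0091 with its size factors, 0.0286 without a filter, 0.0026 with filterByExpr and 0.0044 with 2 groups. Atf6 was 0.018 without a filter, and with total counts Dnajb9 was -0.0049 and Pdilt -0.0395. Xbp1, both against vehicle, ran from -0.162 to 0.182 and was 0.0009 with DESeq2 size factors and 0.0258 without a filter. The causes were not tested.

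No paired analysis was possible because the labels number the libraries 1 to 9 without sharing numbers between groups. Genes near 2 normalized counts, such as Eif2ak3, were too shallow to compare.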
